A study of Mus musculus with 3 samples.

Results

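The cells described here are 2219 CD133+ bone marrow cells, most of them rich in the transcripts of neutrophil specific granules, that lay below the high *Mpo* range, had few transcripts of cell cycle genes and had little *Retnlg* and *Mmp8*. They were taken from 26838 cells of 3 libraries that passed the limits on quality, and they are called non-cycling precursors after the limits that chose them. A cell was kept with at least 200 genes, at most 20% mitochondrial UMIs and a UMI total between the 5th and 95th percentile of its own library. A UMI (unique molecular identifier) tags 1 captured mRNA molecule, so that PCR copies are counted once. Of the kept cells, members had *Mpo* under 10 and *Retnlg* plus *Mmp8* under 10 UMIs per 10000 UMIs of the cell, fewer than 3 UMIs of *Mki67*, *Top2a*, *Cdk1*, *Ube2c* and *Birc5* together, and fewer than 10 UMIs of 9 genes of other blood lineages together. The members were thus chosen on measured values, and whatever those 17 genes show between classes is the choice and not a finding.

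The libraries were made by the 10x Chromium 3′ v2 kit from cells sorted for CD133 (the product of *Prom1*) from the bone marrow of C57BL/6 mice, and the labels name no transgene or treatment. The study's text gives C57BL/6N for the sort that yielded 10869 cells, the cell number of the control library. The library called young and the library called control came from mice of 3 months, and the library called old carries an age of 27 months in its label and of 18.5 months in the series' description and the study's text. Cells of 3 mice were pooled in each library, so that each group was 1 library, no spread between mice could be measured and no test was made. Age, mice and library therefore cannot be told apart, intervals cover counting error only, and a gene was called higher or lower past 1.5-fold.

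Neutrophils develop in the marrow in steps that can be read from their granules. Promyelocytes make the proteins of primary granules, such as myeloperoxidase and elastase, and divide. Myelocytes and metamyelocytes then fill the specific granules with lactoferrin, cathelicidin, lipocalin and related proteins while division ends, and later cells fill the gelatinase granules and place receptors for chemokines and formyl peptides on their surface. C/EBP-ε is the transcription factor known to drive the specific granule genes.

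The label of these cells was checked against 3 markers. *Camp*, the gene of cathelicidin, had 70507 UMIs per 1000000 UMIs of the members (CPM) in the young library, 69034 in the control library and 50097 in the old library. *Ltf*, the gene of lactoferrin, had 9314, 8749 and 10835 CPM in the same order. Both specific granule genes were thus abundant in all 3 libraries. In the mouse genome (GRCm38, GENCODE M21) they lie on the same chromosome, *Camp* at chr9:109847379-109849617 and *Ltf* at chr9:111019271-111042767. *Cdkn1a* (chr17:29090976-29100727), which encodes the cyclin-dependent kinase inhibitor p21, went against the label. It had 1.81, 1.99 and 3.63 CPM in the members from 8, 15 and 13 UMIs, against 6.41, 8.68 and 10.4 CPM in cells that met every limit but the one on cycling genes (cycling precursors). At least 1 *Cdkn1a* UMI was found in 1.14%, 1.20% and 1.98% of the members, and in 0.286%, 0.600% and 0.565% once every cell was thinned to 3000 UMIs. *Cdkn1a* therefore does not mark these cells, and the name rests on *Camp*, *Ltf* and the limits of the rule. *Camp* had 71714, 64537 and 45117 CPM in cycling precursors, so that it does not set the members apart from that class.

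*Prom1* itself had 34.0 CPM in young, 33.8 in control and 33.5 in old members. At 3000 UMIs per cell, 8.01% (95% exact binomial interval 6.11 to 10.3), 9.86% and 9.60% of the members had a *Prom1* UMI. The share was higher in cells with *Mpo* at 10 or more per 10000, at 17.4%, 19.5% and 18.9%. In cycling precursors it was also higher, at 11.05%, 12.7% and 11.8%. Cells with *Retnlg* plus *Mmp8* at 10 or more per 10000 had a lower share, at 5.27%, 8.84% and 7.45%. *Prom1* thus does not set the members apart from these classes. Among 112 cells of the young library with 10 or more UMIs of *Cd79a* and *Vpreb3*, genes of the B lineage, the share was 2.68% (0.556 to 7.63), with a median depth of 7115.5 UMIs against 6033 in the young members. The interval of these cells overlapped that of the young members. The study calls the sorted cells endothelial-like. Of 9 endothelial markers (*Cdh5*, *Pecam1*, *Kdr*, *Tek*, *Emcn*, *Vwf*, *Eng*, *Flt1* and *Egfl7*) none reached 10 CPM in the members, and together they had 17.0 CPM in young, 5.58 in control and 4.46 in old. The young value came largely from 47 members with little *Ltf*, described with the spread among members, where these markers summed to 216 CPM, against 4.70 CPM in the 564 young members of 50 to under 150 *Ltf* UMIs per 10000. *Tek* was at 0 UMIs in all 3 libraries, and *Cdh5*, which encodes VE-cadherin, had 11 UMIs in young members, 10 of them in those 47 cells, and 0 in control and old members.

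The genes that place these cells in neutrophil development were also looked at in sequence. The stretches before their start sites were taken from RefSeq (build GRCm38.p6), read 5′ to 3′ on the strand of the gene, and searched over 250 bases on both strands for the letters TTGCNNAA (TTNNGCAA on the other strand), a core bound by C/EBP factors. The letters stood in 9.55% of 27025 promoters of that length. Of 14 specific granule genes, 11 had a promoter in the table and 4 of these held the letters (*Ltf*, *Ngp*, *Lcn2* and *Fcnb*), while 2 of 20 promoters of gelatinase and late genes did (*Retnlg* and *Mmp8*). *Ltf* and *Ngp*, high in the members, and *Mmp8*, low in them by the rule, are shown up to the start in RefSeq or, where it lies earlier, in GENCODE, with the match in capitals.
Ltf (chr9:111019042-111019270, plus strand): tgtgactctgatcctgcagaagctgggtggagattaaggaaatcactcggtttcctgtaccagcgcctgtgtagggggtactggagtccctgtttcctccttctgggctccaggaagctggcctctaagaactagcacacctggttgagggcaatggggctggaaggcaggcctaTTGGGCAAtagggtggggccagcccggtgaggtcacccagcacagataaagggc
Ngp (chr9:110419558-110419746, plus strand): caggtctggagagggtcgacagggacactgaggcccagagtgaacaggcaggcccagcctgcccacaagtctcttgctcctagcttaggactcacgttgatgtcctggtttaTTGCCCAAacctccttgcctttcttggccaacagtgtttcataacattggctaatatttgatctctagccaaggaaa
Mmp8 (chr9:7558179-7558428, plus strand): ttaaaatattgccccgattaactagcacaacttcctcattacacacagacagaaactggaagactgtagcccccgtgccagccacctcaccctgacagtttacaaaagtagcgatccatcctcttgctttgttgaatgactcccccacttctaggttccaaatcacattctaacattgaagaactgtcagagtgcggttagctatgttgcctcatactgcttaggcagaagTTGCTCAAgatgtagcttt
The match lay 75 bases before the start of *Ltf* in RefSeq and 19 bases before that of *Mmp8*. *Ngp*, which encodes neutrophilic granule protein, had 2 matches, 138 and 11 bases before its start in RefSeq, of which the farther one is shown. No match was found for *Camp*. Promoters of both stages held the letters, and a match is no evidence that a factor binds there.

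In the young library 699 of 7521 kept cells were members, a share of 9.29% (95% Clopper-Pearson interval 8.65 to 9.97). In the control library 1166 of 9780 were members (11.9%, 11.3 to 12.6), and in the old library 354 of 9537 (3.71%, 3.34 to 4.11). The old share was thus the lowest and lay below both 3-month shares by more than the counting error, and the 3-month libraries differed from each other as well. With members limited to 0 cycling UMIs, however, the young and control shares no longer differed beyond the counting error, at 2.85% (2.48 to 3.25) and 2.89% (2.57 to 3.25), and the old share was 0.703% (0.545 to 0.891). The old library, lowest in share, was also the deepest. The depth per member cell was 10055 UMIs at the median in old, 6033 in young and 6187.5 in control, with 1714, 1259 and 1262 genes detected, and 1 limit of the rule counts raw UMIs of cycling genes. When every cell was thinned to 3000 UMIs and cells without a cycling UMI were taken, the shares were 5.66% (5.15 to 6.21), 7.55% (7.03 to 8.09) and 4.01% (3.62 to 4.42). With fewer than 3 cycling UMIs per 10000 they were 8.14%, 10.4% and 5.0%. The old share was the lowest under these settings and under each limit drawn in the plot of shares, while the distance of the old share from the young one was smaller with the thinned cells, for which the limit on other lineages was also set to fewer than 3 UMIs.

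**Figure D1:**
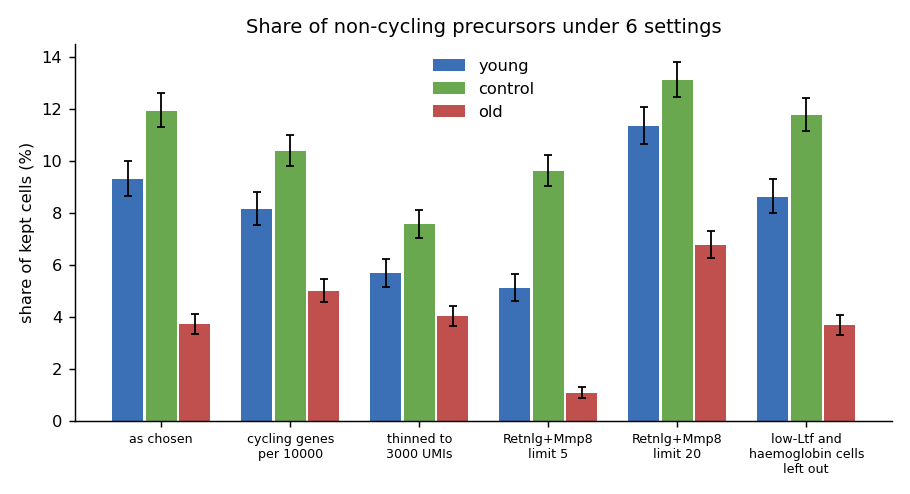
Share of kept cells (%, vertical axis) that were non-cycling precursors in the young, control and old libraries under 6 settings of the rule, with bars from 0 and 95% Clopper-Pearson intervals that cover counting error only. The old share is the lowest under each of them, at 3.71% as chosen and 4.01% with cells thinned to 3000 UMIs.

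The next class in development held a share in the opposite order. Cells with *Retnlg* plus *Mmp8* at 10 or more per 10000 (maturing cells) made up 11.9% of the young, 5.20% of the control and 25.5% of the old library. Cycling precursors made up 45.4%, 55.6% and 46.0%, and cells with *Mpo* at 10 or more made up 25.4%, 26.6% and 24.03%. The limit between members and maturing cells ran through a continuous range of values. Members with *Retnlg* plus *Mmp8* of 8 to under 10 numbered 86 in young (12.3%), 45 in control (3.86%) and 82 in old (23.2%), and maturing cells of 10 to under 12 numbered 140, 67 and 381. The limit on cycling genes likewise had 223, 437 and 177 members with 2 cycling UMIs just inside it and 199, 364 and 180 cycling precursors with 3 just outside. UMIs of these genes also lay in cells of another lineage. In the 112 cells of the young library with B lineage genes, *Elane* had 1580 CPM, against 984 CPM in the young members, and *Retnlg* and *Mpo* had 611 and 453 CPM, against 436 and 322 CPM in members, where the rule itself limits both. The source of these UMIs in the B lineage cells was not tested, and the control and old libraries held 13 and 3 such cells, too few to set a level.

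Single members differed widely in *Ltf*. The median cell had 94.9 *Ltf* UMIs per 10000 in young, 86.4 in control and 112 in old, and the middle 90% of the young members ran from 7.30 to 150.2. Between 50 and 150 per 10000 lay 564 young (80.7%), 1015 control (87.0%) and 301 old members (85.0%). Under 10 per 10000 lay 47 young (6.72%), 11 control (0.943%) and 5 old members (1.41%), and these few cells carried genes of other blood lineages. In the 47 young cells the genes that stood out most from the other young members were *Klra7*, *Xcl1*, *Clec10a*, *Sox4*, *Klrk1*, *Gata2*, *Txndc5*, *Cd7*, *Ccnd1* and *Siglech*, among them genes known from natural killer cells (*Klra7*, *Klrk1*) and plasmacytoid dendritic cells (*Siglech*), and *Camp* had 7847 CPM there. In the 11 control cells *Car1*, *Car2* and haemoglobin genes were among the 10 that stood out most, and in the 5 old cells *Pf4* and *Crip1*. Summed over 8 erythroid markers, the level was 58232, 42844 and 27.7 CPM below 10 *Ltf* per 10000 and 150, 45.0 and 5.55 CPM between 50 and 150. The 4 cells richest in haemoglobin held 96.9% of the haemoglobin UMIs of the young members and 96.4% of those of the control members. The comparisons between libraries were therefore also made without members of low *Ltf* or with haemoglobin at 10 or more per 10000, which left 648, 1150 and 349 cells.

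**Figure D2:**
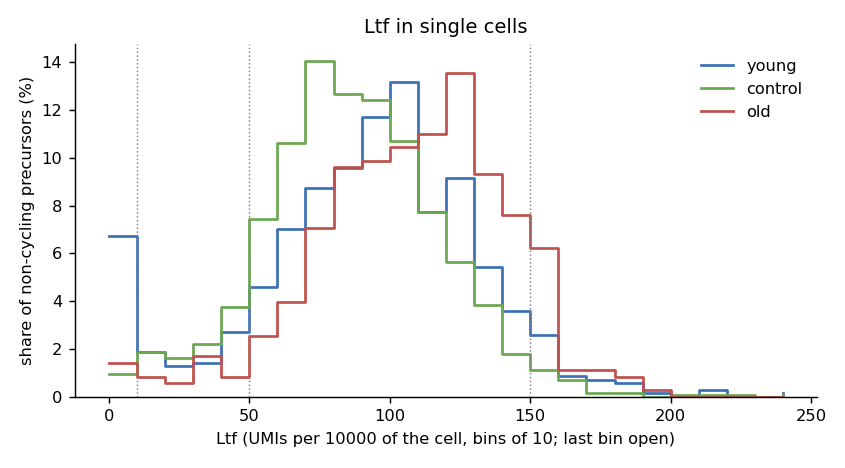
Distribution of *Ltf* (UMIs per 10000 UMIs of the cell, in bins of 10, horizontal axis) among non-cycling precursors of the young, control and old libraries, as the share of members in each bin (%, vertical axis), with dotted lines at 10, 50 and 150. The first bin holds 6.72% of the young members against 0.943% and 1.41% of the control and old members, and the old members lie farther to the right (median 112 against 94.9 and 86.4).

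Along rising *Ltf* the other granule genes did not all move together. *Mmp9*, the gene of gelatinase B, had 27.5 CPM in young members of 10 to under 50 *Ltf* per 10000, 151 CPM between 50 and 150 and 295 CPM at 150 or more. In control members it had 33.8, 129 and 212 CPM, and in old members 29.1, 133 and 186 CPM. *Lcn2*, which encodes the siderophore-binding lipocalin 2, went from 6077 to 12856 and 15052 CPM in young members over the same ranges. *Fcnb*, the gene of ficolin B, went the other way, with 2141, 987 and 780 CPM in young, 1709, 806 and 710 CPM in control and 1556, 669 and 665 CPM in old members. *Camp* had 64478, 74767 and 74964 CPM in young members. Members of 10 to under 50 *Ltf* per 10000, 51, 111 and 14 cells, were thus richer in *Fcnb* and poorer in *Mmp9* than those above in every library. This range also held transcripts of other lineages. Its erythroid markers summed to 17499 CPM in young, 6607 in control and 29.1 in old members. *Irf8*, a gene of monocytes and dendritic cells, had 144 CPM there in young members against 5.26 CPM between 50 and 150. The levels by range include such cells, and their part was not tested.

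Against the cycling precursors of the same library, the contrast that the limit on cycling genes made, the members are described by ratios in each of the 3 libraries. A gene was counted where all 3 ratios were past 1.5-fold in 1 direction. Of 4676 genes with 10 CPM or more in either class in all libraries, 77 were higher in the members (1.65%) and 761 lower (16.3%), with a median log2 ratio over all genes of −0.27. *Hist1h2ap*, a replication-dependent histone gene, had 29.7, 30.4 and 24.3 CPM in young, control and old members against 587, 481 and 480 CPM in cycling precursors. *Nusap1*, whose product binds spindle microtubules, was lower by log2 −3.68, −3.64 and −3.72. *Prc1*, *Casc5*, *Kif11*, *Spc25*, *Kpna2*, *Esco2*, *Pbk* and *Aurka* completed the 10 lowest. All 23 G2/M genes measured outside the rule were lower past 1.5-fold in the 3 libraries.

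S-phase genes were lower by less than those of G2/M. Of 22 listed, 21 were measured, and 13 of these were lower and 0 higher, with library medians of log2 −0.87, −0.87 and −1.40 in young, control and old. *Pcna*, the DNA polymerase clamp, had 82.2, 67.8 and 48.0 CPM in members against 151, 129 and 127 CPM. *Cdc6*, which licenses replication origins, had 16.5, 14.5 and 8.09 CPM in members against 15.0, 16.2 and 14.0 CPM. *Cdc6* thus had no common direction over the 3 libraries. The genes of cell cycle exit were not higher as a group, with 1 of 15 measured higher (*Btg2*, an antiproliferative gene, at 50.7, 25.8 and 30.1 CPM against 20.3, 13.1 and 15.1) and 5 lower. *Cdkn2d*, the gene of the inhibitor p19, had 145, 209 and 293 CPM in members against 292, 385 and 476 CPM. *Cdkn2c*, the gene of p18, had 13.4, 15.2 and 16.2 CPM against 80.8, 75.3 and 97.3 CPM. These inhibitors of the INK4 family were lower in the members of every library, as was *Cdkn1a*. Of 20 listed targets of p53, 4 were measured and 0 passed 1.5-fold in all libraries in either direction.

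The gene with the highest ratio over cycling precursors among the 10 named was *Mmp9*. It had 144, 121 and 133 CPM in young, control and old members against 34.0, 33.0 and 43.5 CPM. *Ly6g*, which encodes the surface antigen that the Gr-1 and 1A8 antibodies bind, had 604, 372 and 229 CPM against 209, 123 and 80.3 CPM. *Ltb*, *S100a6*, *Ceacam10*, *St3gal5*, *Fpr2* (a formyl peptide receptor), *Slfn4*, *Ifitm6* and *AA467197* completed the 10 highest, with *Fpr2* at log2 1.62, 1.44 and 1.35. Of 17 gelatinase and late genes measured outside the rule, 5 were higher and 0 lower, with library medians of 0.55, 0.47 and 0.41. Of 13 specific granule genes, 1 was higher, *Lyz2* (lysozyme, log2 0.59, 0.83 and 0.93), and 1 lower, *Fcnb* (−0.87, −0.75 and −0.69). *Ltf* was higher by 0.38, 0.41 and 0.69, and *Camp* stood at −0.02, 0.10 and 0.15. Of 9 primary granule genes, 4 were lower and 0 higher, with *Elane* at −0.68, −0.61 and −0.88, although its level in the young members was no higher than in the B lineage cells of that library. *Cebpe* was lower by −0.35, −0.24 and −0.30, and *Cebpb*, of the same family, by −0.81, −0.80 and −0.80.

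**Figure D3:**
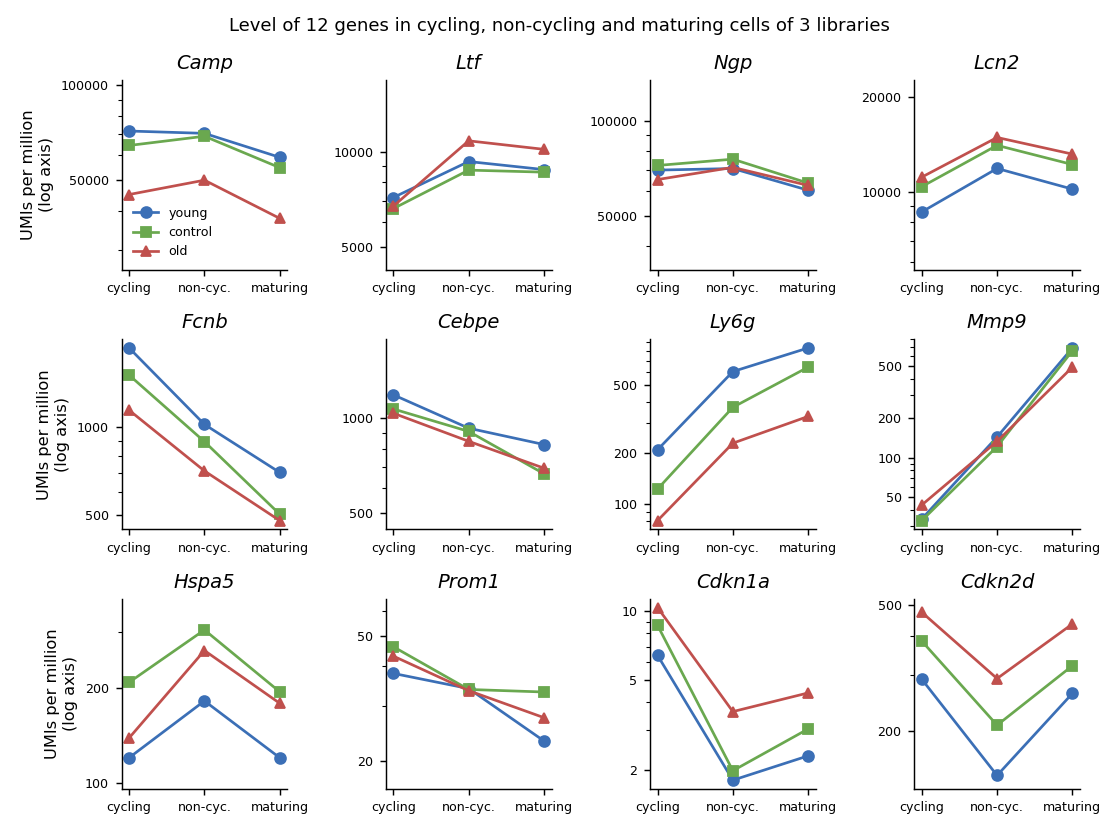
Level of 12 genes (UMIs per 1000000, log axis, each panel with its own range) in cycling precursors, non-cycling precursors and maturing cells of the young, control and old libraries, 1 point per class and library. *Mmp9* and *Ly6g* climb through the 3 classes in every library, *Fcnb* and *Cebpe* descend, and *Hspa5* is highest in the class in the middle, while *Cdkn1a*, from 8, 15 and 13 UMIs in the members, is below the cycling precursors.

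Against maturing cells the members differed by fewer genes. Of 4254 genes, 11 were higher (0.259%) and 161 lower (3.78%), with a median of −0.04 over all genes. *Mmp9* had 144, 121 and 133 CPM in members against 688, 655 and 491 CPM in maturing cells. *Fpr1*, the receptor of formyl peptides from bacteria and mitochondria, had 11.3, 9.57 and 25.7 CPM against 104, 87.2 and 114 CPM. *Hist1h2ap*, *Ifitm1*, *Wfdc17*, *Ccl6*, *Timp2*, *Nusap1*, *Clec4e* and *Tpd52* completed the 10 lowest. Of 20 gelatinase and late genes outside the rule, 8 were lower past 1.5-fold in all libraries, 0 were higher, and 0 had a median ratio above 0. *Cxcr2*, the receptor that leads neutrophils out of the marrow, had 31.9, 61.5 and 87.0 CPM in members against 143, 182 and 170 CPM. *Mmp9*, *Ly6g*, *Fpr2* and *Cxcr2* thus stood between cycling and maturing cells in level in every library.

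Of the 10 named genes with the highest ratios over maturing cells, *Vimp*, *Orm1*, *Tmem216* and *Ffar2* were past 1.5-fold in all libraries. *Vimp*, which encodes selenoprotein S of the machinery that returns misfolded proteins to the cytosol, had 82.9, 160 and 189 CPM in young, control and old members. In maturing cells it had 41.9, 74.4 and 111 CPM, and in cycling precursors 46.7, 88.3 and 105 CPM. *Hspa5*, the chaperone BiP, had 182, 305 and 262 CPM in members, 120, 194 and 179 CPM in maturing cells and 120, 208 and 139 CPM in cycling precursors. Among these 3 classes both were highest in the members of every library, while cells with *Mpo* at 10 or more had *Hspa5* at 545, 781 and 411 CPM. *Hspa5* had log2 ratios over maturing cells of 0.60, 0.65 and 0.56, short of 1.5-fold in old, and *P4hb*, a protein disulfide isomerase, had 0.64, 0.61 and 0.30. *Orm1*, an acute phase protein stored in specific granules, was higher by 0.85, 1.08 and 0.75. *Tmem216*, *Ptgr1*, *Krtcap2*, *Ffar2*, *AI662270* and *Hvcn1* (a proton channel) completed the 10. Of 25 genes of the endoplasmic reticulum and secretion, 0 passed 1.5-fold in all libraries in either direction, while 23 had a median ratio above 0, with library medians of 0.35, 0.41 and 0.27. Of 13 specific granule genes, 1 was higher (*Orm1*) and 11 had a median above 0, and *Fcnb* had log2 0.54, 0.82 and 0.56. Of 83 cytosolic ribosomal protein genes, 81 had a median above 0 and 0 passed 1.5-fold.

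The limits of the maturing class bear on these ratios. They set no condition on cycling genes, and 31.7% of the young, 29.1% of the control and 53.3% of the old maturing cells had 3 or more cycling UMIs. With maturing cells of fewer than 3 cycling UMIs alone (609, 361 and 1135 cells), 167 genes were higher in the members instead of 11, and *Hist1h2ap* moved to log2 0.12. The count of 11 also rested on the old library, without which it was 59, while without the young library it was 19 and without the control library 24, and the 161 lower genes became 291 without the old library.

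**Figure D4:**
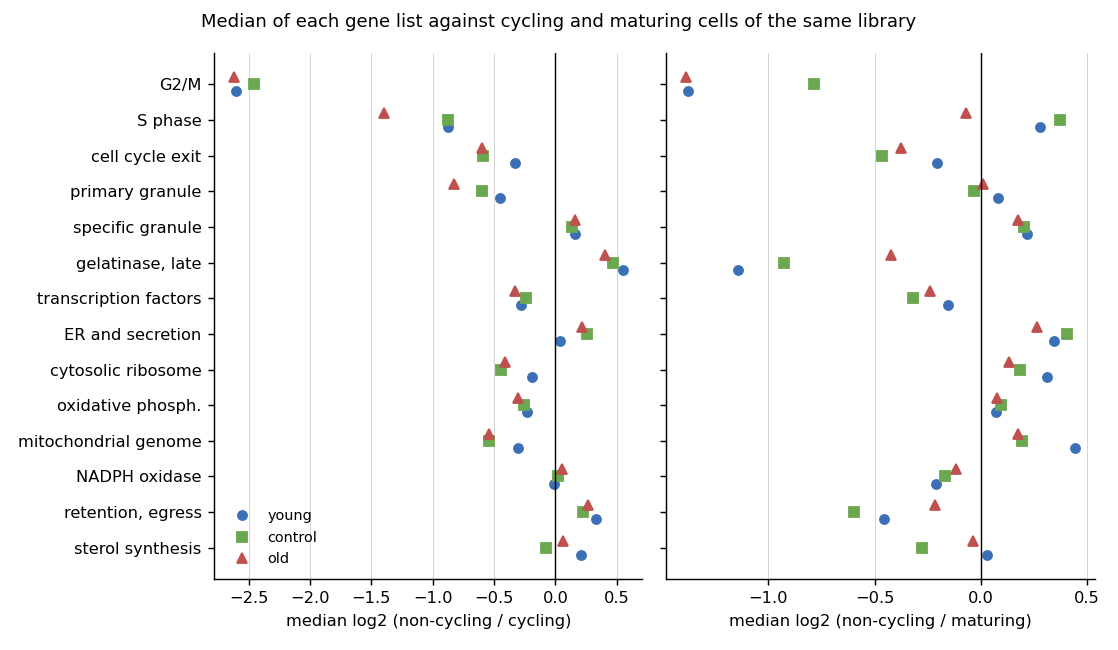
Median log2 ratio of non-cycling precursors over cycling precursors (left) and over maturing cells (right) for 14 gene lists (rows), 1 marker for each library, among genes measured outside the rule. Gelatinase and late genes lie above 0 on the left (0.55, 0.47 and 0.41) and below 0 on the right. Genes of the endoplasmic reticulum lie above 0 on the right, and on the left at 0.04 in young, 0.26 in control and 0.22 in old.

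Between libraries the members were compared for old against young, old against control and control against young. The 2 comparisons of the old library share it, so that their values are given side by side. Of 4971 genes with 10 CPM or more in either library, 445 were higher in old than in young members (8.95%) and 893 lower (18%). In each comparison a gene under 10 CPM in 1 library entered through the other, which fixed its direction. Of 4728 genes, 438 were higher in old than in control (9.26%) and 534 lower (11.3%). Of 4895 genes, 161 were higher in control than in young (3.29%) and 454 lower (9.27%), although both libraries carry the same age. The median log2 ratio over all genes was −0.06, −0.01 and −0.05. Scaling by median-ratio size factors moved every ratio up by 0.17, 0.06 and 0.11 in the 3 comparisons, and the use of UMIs per cell by 0.68, 0.65 and 0.03, so that a list whose median turned is given with both. With UMIs per cell the balance of the counts turned, to 2625 genes higher and 241 lower in old than in young members, and to 2612 higher and 65 lower in old than in control members. It also turned with a 50 CPM minimum, to 144 higher and 129 lower against young and 136 and 83 against control. With 4 *Ltf* ranges weighted equally it turned against control (1620 higher and 1010 lower) but not against young (1211 and 1625). Without the cells low in *Ltf* or rich in haemoglobin, the lower genes of control against young fell to 299.

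The stefin list, 7 genes of the stefin A family and *Cstb* (stefin B), all inhibitors of cysteine proteases, had the highest median of all lists in the old members against either 3-month library. *Stfa1* had 14.7 CPM in young, 43.9 in control and 467 in old members, a log2 ratio of 4.99 (4.63 to 5.37) over young and 3.41 (3.24 to 3.59) over control. *BC100530* had 4.76, 20.1 and 467 CPM, *Gm5483* had 4.76, 0.930 and 126 CPM, and *Stfa2l1* had 4.08, 1.33 and 86.5 CPM. The old level was thus the highest for each, and of the 3 listed genes with 10 CPM or more in control or young, 2 were higher in control and 0 lower (median 1.57), while *Gm5483* and *Stfa2l1* were under 10 CPM in both. Of 7 genes measured of 8 listed, 6 were higher in old than in young and 6 higher than in control, and 0 were lower, with medians of 4.72 and 4.60, and of 4.72 and 4.60 without the cells low in *Ltf*. All but the 3 genes with 10 CPM or more in control or young entered through the old library alone, where they are high. The limit thus fixed the direction of these genes, on which the counts and medians partly rest. The stefin A genes, unlike *Cstb*, are near-identical copies, of which *Stfa2l1* (chr16:36156811-36161953), *Gm5483* (chr16:36184212-36188111), *Stfa1* (chr16:36276951-36285373) and *BC100530* (chr16:36359382-36367748) lie side by side, so that reads may have been split among them. The same list had medians of 3.45 over young and 4.26 over control in cycling precursors and 2.41 and 3.82 in maturing cells, so that the difference was also present outside the members.

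Of the other genes among the 10 furthest above both 3-month libraries, *S100a6*, a calcium-binding protein gene, had 808 CPM in young, 485 in control and 3423 in old members. *Ifitm1*, which encodes an antiviral membrane protein, had 26.7, 9.84 and 308 CPM. *Asprv1*, a retroviral-like protease gene of mature neutrophils, had 6.80, 7.31 and 111 CPM, and *Wfdc17*, a small secreted protein gene, had 26.3, 14.2 and 218 CPM. *Il1f9*, which encodes interleukin 36γ, and *Tuba1a*, an α-tubulin gene, completed the list with 51.6 and 60.2 CPM in old against 5.44 and 14.7 in young and 8.24 and 17.7 in control. *S100a6*, *Ifitm1*, *Asprv1* and *Wfdc17* were also higher in maturing cells than in members of each library, and the old members lay closest to the limit on *Retnlg* plus *Mmp8*, with a median of 6.30 per 10000 against 4.70 and 2.52. The part of this in the differences was not tested. Of 21 gelatinase and late genes measured (*Retnlg* and *Mmp8* included), 6 were higher and 3 lower in old than in young (median 0.32), and 9 higher and 1 lower than in control (0.50), with *Retnlg* and *Mmp8*, which the rule used, 2 of these 9.

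Genes of sterol synthesis were higher in the old members. *Fdps*, which makes farnesyl diphosphate, had 47.8 CPM in young, 106 in control and 312 in old members, a log2 ratio of 2.70 (2.49 to 2.92) over young and 1.55 (1.42 to 1.68) over control. *Idi1*, the isomerase of the step before, had 8.38, 15.3 and 33.5 CPM, and *Msmo1*, a sterol methyl oxidase, had 38.1, 41.7 and 86.7 CPM. *Hmgcs1*, the synthase at the head of the pathway, had 12.5, 7.58 and 24.8 CPM. *Sqle*, the squalene epoxidase, had 2.94, 3.85 and 14.2 CPM. *Ebp*, a sterol isomerase, had 50.5, 48.2 and 53.8 CPM, so that not every step differed. Of 16 genes measured of 23 listed, 13 were higher and 0 lower in old than in young (median 1.20), and 12 higher and 0 lower than in control (1.15). Only 9 were measured between control and young. The others, *Sqle* among them, entered these counts and medians through the old library alone, where they are high, which fixed their direction. Between control and young 2 of 9 were higher and 1 lower (0.05), with *Fdps* at log2 1.15. Without the cells low in *Ltf* the medians of old were 1.26 over young and 1.13 over control. The medians over young were 1.02 in cycling precursors and 1.28 in maturing cells, so that the list did not set the members apart from those classes. Among members of 50 to under 150 *Ltf* per 10000 they were 1.43 over young and 1.25 over control.

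The letters TCACNCCAC (GTGGNGTGA on the other strand), a form of the sterol regulatory element, stood in 1.04% of the 27025 promoters and in 1 of 17 of this list, *Hmgcs1*. The match is in capitals, 137 bases before the start in RefSeq.
Hmgcs1 (chr13:119690101-119690350, plus strand): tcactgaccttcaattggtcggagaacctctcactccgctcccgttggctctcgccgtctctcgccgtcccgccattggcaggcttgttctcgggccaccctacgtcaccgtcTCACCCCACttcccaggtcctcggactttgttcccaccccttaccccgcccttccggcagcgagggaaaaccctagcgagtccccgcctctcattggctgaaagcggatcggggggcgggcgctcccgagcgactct

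Interferon-stimulated genes had the lowest median of the lists other than cell type markers in both the control and the old members against the young members. *Ifi27l2a* had 1065 CPM in young, 23.1 in control and 9.20 in old members. *Isg15*, a ubiquitin-like modifier, had 213, 16.7 and 3.63 CPM, *Rtp4* had 205, 5.32 and 2.51 CPM, and *Ifit1*, which binds viral RNA, had 56.9, 1.06 and 0.837 CPM. *Usp18*, the protease that removes ISG15, had 49.6 CPM in young from 219 UMIs and 0.665 and 0.558 CPM in control and old from 5 and 2 UMIs. The young library thus stood apart from the other 3-month library. It also held the largest share of kept cells past the limit on other lineages, at 8.11% against 0.665% in control and 0.734% in old. In those young cells *Ifi27l2a* had 4572 CPM. Monocyte markers, of which the rule limits some, summed to 60.9, 8.24 and 13.7 CPM in young, control and old members. The part of such cells in the difference was not tested. Of 20 genes measured of 25 listed, 18 were lower and 1 higher in control than in young (median −3.92), and 16 lower and 3 higher in old than in young (−4.66). Of 8 genes measured in old against control, 3 were lower and 2 higher (0.17). The others, *Rtp4*, *Ifit1* and *Usp18* among them, entered the counts and medians against young through the young library alone, where they are high, which fixed their direction. The *Ifitm* genes differed among themselves. *Ifitm2* had 785, 1121 and 2429 CPM and *Ifitm6* had 2689, 5473 and 7285 CPM, both higher in old than in young, and *Ifitm6* also in control. *Ifitm3* had 2970, 1509 and 2095 CPM and was lower in control than in young, as was *Ifitm1*. In cycling precursors the list had medians of −4.60 for old and −3.86 for control against young, and in maturing cells −4.54 and −3.33. Without cells of low *Ltf* the members had −4.83 and −3.58, so that the difference was also present without these cells.

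The letters GAAA, any 2 bases and GAAA again (TTTC, 2 bases and TTTC on the other strand), the repeat of the interferon-stimulated response element, stood in 3.04% of all promoters and in 8 of 19 of this list (*Isg15*, *Ifit1*, *Ifit3*, *Stat2*, *Bst2*, *Ifitm2*, *Rsad2* and *Trim30a*). *Isg15* held 3 overlapping matches and *Ifit1* held 2, shown in capitals as the genes with the levels given above.
Isg15 (chr4:156200819-156201068, minus strand): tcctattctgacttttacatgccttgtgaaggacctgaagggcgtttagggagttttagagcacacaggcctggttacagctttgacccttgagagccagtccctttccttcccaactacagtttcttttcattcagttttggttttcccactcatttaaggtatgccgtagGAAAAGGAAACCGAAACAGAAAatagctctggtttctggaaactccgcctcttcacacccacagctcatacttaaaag
Ifit1 (chr19:34640639-34640870, plus strand): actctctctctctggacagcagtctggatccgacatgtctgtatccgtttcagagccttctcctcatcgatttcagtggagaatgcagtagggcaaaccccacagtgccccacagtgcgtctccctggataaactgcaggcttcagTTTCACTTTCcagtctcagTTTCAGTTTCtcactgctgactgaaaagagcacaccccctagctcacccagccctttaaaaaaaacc
The matches began 78, 72 and 66 bases before the start of *Isg15* in RefSeq and 104 and 85 bases before that of *Ifit1*.

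**Figure D5:**
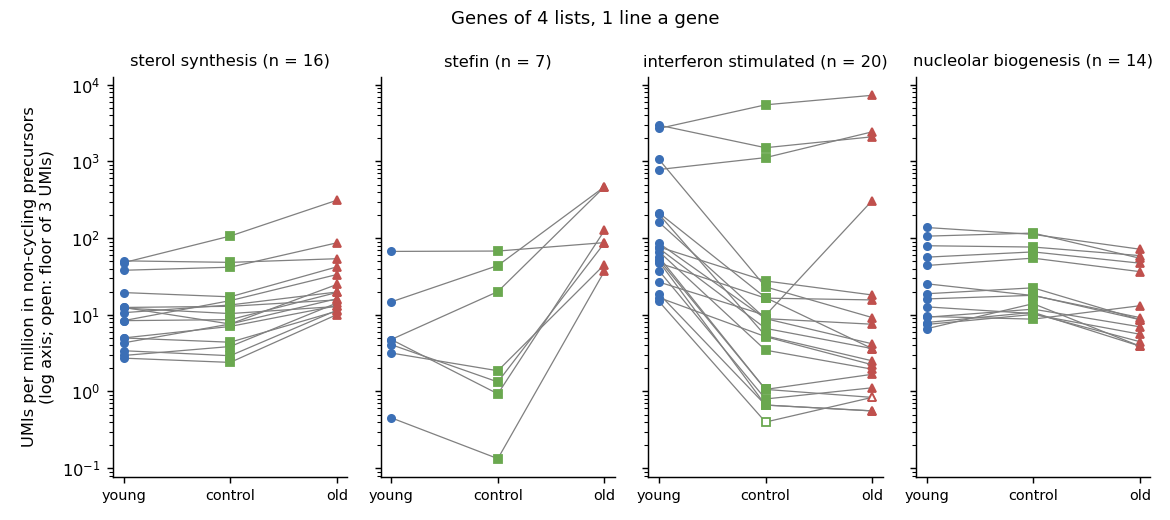
Level in non-cycling precursors (UMIs per 1000000, log axis) of the genes of 4 lists with 10 CPM or more in any library, 1 line for each gene across the young, control and old libraries, with open markers at the floor of 3 UMIs where a gene had 0. Sterol and stefin genes (*Cstb* included) are highest in old, most interferon-stimulated genes are high in the young library alone, and most nucleolar genes have their lowest level in old.

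Genes of the endoplasmic reticulum, with library medians above 0 in the members against both neighbouring classes, differed between the 3-month libraries. *Manf*, a secreted protein of the unfolded protein response, had 111 CPM in young, 249 in control and 187 in old members. *Sdf2l1* had 39.4, 83.6 and 73.1 CPM, *Pdia6* had 73.8, 136 and 140 CPM, and *Hsp90b1* (GRP94) had 132, 199 and 100 CPM. Of 25 measured, 12 were higher and 0 lower in control than in young (median 0.51). Against young, old members had 5 of 24 higher and 0 lower (0.37), and 8 higher and 0 lower (0.48) without the cells low in *Ltf*. Against control they had 0 of 25 higher and 3 lower (−0.18), a median that was −0.12 with size factors and turned to 0.47 with UMIs per cell. *Hsp90b1* was the one furthest below control in old, at log2 −0.99 (−1.16 to −0.82).

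The nucleolar list had medians below 0 and the ribosomal list medians above 0 in the old members against both 3-month libraries. *Npm1*, which encodes nucleophosmin, had 137 CPM in young, 112 in control and 71.7 in old members. *Nop10* had 106, 116 and 54.7 CPM, and *Fbl*, the gene of fibrillarin, had 25.4, 17.8 and 9.20 CPM. Of 10 nucleolar genes measured of 22 listed, 6 were lower and 0 higher in old than in young (median −0.92), and of 14 measured 10 were lower and 0 higher than in control (−0.90). Among members of 50 to under 150 *Ltf* per 10000, these medians were −0.43 and −0.83. Without the cells low in *Ltf* they were −0.60 and −0.95. With UMIs per cell they were −0.24 and −0.25. Of 83 cytosolic ribosomal protein genes measured of 86, 11 were higher and 1 lower in old than in young (median 0.37), and 32 higher and 0 lower than in control (0.51). The cells low in *Ltf* mattered here, since the first count rose to 45 and its median to 0.62 without them. In young, control and old cycling precursors the ribosomal list summed to 73433, 75832.5 and 109293 CPM. In maturing cells it summed to 53434, 50327 and 75175 CPM. The nucleolar list summed to 701, 874 and 574 CPM in cycling precursors and to 459, 563 and 347 CPM in maturing cells. The old sum was thus highest for the ribosomal and lowest for the nucleolar list outside the members as well. Of 77 nuclear genes of oxidative phosphorylation, 0 were higher and 1 lower in old than in young (0.02). Of 12 mitochondrially encoded genes, 0 were higher and 3 lower than in young (−0.36, and −0.04 without the cells low in *Ltf*), and 0 higher and 6 lower than in control (−0.49). These medians were −0.18 and −0.43 with size factors and turned to 0.33 and 0.16 with UMIs per cell.

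The S-phase list had medians below 0 in the old members, for which the limit on raw cycling UMIs is stricter since they were deeper. *Pcna* had 82.2 CPM in young, 67.8 in control and 48.0 in old members, and *Cdt1*, a licensing factor, had 18.6, 17.1 and 7.53 CPM. *Slbp*, which binds histone mRNA, had 162, 150 and 99.3 CPM. Of 21 measured, 12 were lower and 0 higher in old than in young (median −0.69), and of 20 measured 6 were lower and 0 higher than in control (−0.41). With the limit per 10000 in place of raw UMIs the medians were −0.70 and −0.41. With size factors they were −0.51 and −0.35, and with UMIs per cell −0.0041 and 0.24, so that the direction held only relative to the other genes of the same cells. In cycling precursors the medians were −0.13 and 0.07, and in maturing cells −0.26 and 0.13.

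Several genes of the surface and of migration followed the order of young, control and old. *Cxcr4*, the receptor that retains neutrophils in the marrow, had 57.1 CPM in young, 35.5 in control and 17.8 in old members, a log2 ratio of −1.68 (−2.10 to −1.28) over young and −0.99 (−1.41 to −0.59) over control. *Cxcr2* had 31.9, 61.5 and 87.0 CPM, the reverse order, with 1.45 (1.15 to 1.74) and 0.50 (0.29 to 0.71). *Ccr1*, another chemokine receptor, had 31.0, 71.2 and 112 CPM. *Ly6g* had 604, 372 and 229 CPM, and *Cd44*, the hyaluronan receptor, had 104, 97.4 and 61.6 CPM. For *Cxcr4*, *Cxcr2*, *Ccr1* and *Ly6g* the control library lay between the others, 1.61-fold below young for *Cxcr4* and 1.93-fold above it for *Cxcr2*. Of 14 genes of retention and egress measured of 15, 2 were higher and 6 lower in old than in young (median −0.29), and of 13 measured 2 were higher and 2 lower than in control (−0.01). Without the cells low in *Ltf*, 2 were higher and 4 lower than in young (−0.11). The medians over young and control were −0.12 and 0.05 with size factors and 0.39 and 0.64 with UMIs per cell.

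Genes of specific granules had medians of 0.01 over young and −0.09 over control in the old members. Of 13 specific granule genes measured of 14, 1 was higher and 0 lower in old than in young (*Hp*, haptoglobin, 2010, 3048 and 3128 CPM), and 0 higher and 1 lower than in control (*Orm1*, 320, 470 and 287 CPM). Without the cells low in *Ltf*, 0 were higher and 1 lower than in young, since *Hp* no longer passed 1.5-fold and *Fcnb*, at 1071, 887 and 703 CPM, did. The median over control was −0.02 with size factors and turned to 0.56 with UMIs per cell. *Ngp* had 70521, 75501 and 71111 CPM, and *Camp* was lower in old by log2 −0.49 over young and −0.46 over control, short of 1.5-fold. *Lrg1*, the leucine-rich glycoprotein of granules, is not among these 13 genes and had 536, 946 and 1653 CPM, with its highest level in old. *Cebpe* had 931, 909 and 846 CPM and *Spi1*, the gene of PU.1, 398, 476 and 607 CPM. Of 7 NADPH oxidase genes, 0 passed 1.5-fold in any of the 3 comparisons. A further list holds the annexins with *Tspo*, *Fdps* (also in the sterol list), *Prom1* and *Lipg*. The study picked *Fdps*, *Anxa1* and *Tspo* on these libraries, so that the list is no independent evidence of its direction. Of its genes, 7 of 11 measured were higher and 1 lower in old than in young, and 5 of 10 higher than in control. *Anxa1*, the annexin that limits neutrophil recruitment, had 4726, 4539 and 7395 CPM, and *Lipg*, the gene of endothelial lipase, had 4.08, 48.5 and 87.6 CPM.

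Of the genes lowest in the old members, 4 were the haemoglobin genes *Hba-a1*, *Hba-a2*, *Hbb-bs* and *Hbb-bt*, which came from few cells. *Hbb-bs* had 2005 CPM in young, 459 in control and 2.23 in old members, and 54.9, 14.9 and 2.25 CPM without the cells low in *Ltf* or rich in haemoglobin. *Hba-a1* and *Hba-a2*, and *Hbb-bs* and *Hbb-bt*, are near-identical pairs. With UMI percentiles over the 3 libraries together, their ratios of old over control turned to log2 0.58, 0.48, 0.51 and 1.14. *Irf8*, a transcription factor of monocytes and dendritic cells, had 68.0, 1.33 and 0.558 CPM, and 16.1, 1.21 and 0.282 CPM without the cells low in *Ltf* or rich in haemoglobin. From 2 old UMIs, its ratio of old over control turned to log2 1.56 with a *Retnlg* plus *Mmp8* limit of 5, 0.37 with thinned cells and 0.40 with 4 *Ltf* ranges. *Epsti1*, *Isg15* and *Ifi27l2a* are induced by interferon, with *Epsti1* at 50.5, 6.78 and 1.12 CPM. *Stk39*, a kinase that regulates ion cotransporters, had 75.9, 76.8 and 24.8 CPM, and *Hspe1*, the mitochondrial cochaperonin, had 54.4, 51.3 and 18.1 CPM. The old level was the lowest for both. Without the cells low in *Ltf*, *Hspe1* stayed at log2 −1.13 over young and −1.61 over control, and *Epsti1* at −5.55 and −2.94. Both were then under the 50 CPM needed for naming in every library, with *Hspe1* at 35.9 CPM in young members. Without cells of low *Ltf*, *Crip1*, *Ldhc*, *Bst2*, *Megf9*, *Hipk1* and *Ifi27* joined *Hbb-bs*, *Isg15*, *Stk39* and *Ifi27l2a* among the 10 lowest. *Megf9* then had 54.6, 57.9 and 25.6 CPM and *Hipk1*, a kinase gene, 80.6, 68.8 and 32.4 CPM.

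Control against young members, of 1 age, also gave genes past 1.5-fold, several of which differed in old against young as well. *Pim1*, a serine kinase induced by cytokines, had 26.3 CPM in young and 67.0 in control members, and *Ldhc*, a lactate dehydrogenase, 36.2 and 80.8 CPM. Among genes with 50 CPM or more in either library, these with *Ccr1*, *Manf* and *Fdps* were the 5 highest. *Ccl5*, a chemokine of T and natural killer cells, had 97.9 CPM in young and 0.133 in control members from 1 UMI. *Ly6d* had 77.9 and 0.930 CPM, and *Ifit1*, *Irf8* and *Oasl2* were the other 3 lowest at the same minimum. Markers of other cells, *Ccl5* itself among them, moved with these genes. Summed over 7 natural killer and T cell markers, young, control and old members had 339, 167 and 121 CPM. Of these sums *Nkg7*, also made by promyelocytes, gave 194, 161 and 115 CPM, and *Ccl5*, named above, gave 97.9 CPM in young. *Gzma*, another of these markers, is limited by the rule. Dendritic markers summed to 82.0, 9.70 and 6.14 CPM, of which *Cd74*, a gene the rule limits, gave 30.8 CPM in young and 5.32 in control. Markers of stem and progenitor cells summed to 71.6, 6.78 and 5.86 CPM, led by *Ly6a* in young. Without the low-*Ltf* cells *Ccl5* had 26.5 CPM in young and *Ly6d* 29.1 CPM. The part of these cells in the remaining difference was not tested.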

How the data were processed

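The deposited matrices hold UMI counts of 27998 genes per cell, made by the authors with STAR and Cell Ranger 2.1.0 on mm10 (submitters' processing notes) and not normalized. Library totals were 81434722 (young), 108985799 (control) and 138030352 UMIs (old) in 8362, 10869 and 10597 cells. Members held 4414869, 7523681 and 3585568 UMIs. Cells sharing a barcode between libraries numbered 120 (old and young), 161 (old and control) and 125 (control and young), of which 0, 2 and 1 were members in both. UMIs were summed per class and library and scaled to 1000000. Intervals are exact at 95% (Clopper-Pearson, Poisson, conditional binomial). The floor is 3 counts. Scrublet marked 2, 2 and 344 cells (0.0239%, 0.0184% and 3.25%) as doublets, too few in young and control for the caller to have worked, and doublets were kept in all 3 libraries alike. Genes named are the 10 highest and lowest (5 for control against young) with 50 CPM or more, same sign throughout, and the lists' members. Members, lists and rules were chosen with earlier results of these data known. The computation of ratios was checked on simulated counts. Positions are of GENCODE M21 (GRCm38). The scripts ran in Python 3.11.15 with scanpy 1.11.5, scipy 1.17.1, pandas 2.3.3, matplotlib 3.10.9 and numpy 2.4.6. Clusters and pseudo-time of the study were not analysed here.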

Additional observations from a re-analysis of the deposited data

How the results depend on the processing

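No paired analysis was possible because each group is 1 library. The results that leave out a replicate leave out a library, and the stage contrasts then gave 19 to 59 genes higher and 187 to 291 lower against maturing cells. The shares of members in young, control and old were 8.14%, 10.4% and 5.0% with cycling genes under 3 per 10000, 2.85%, 2.89% and 0.703% at 0 cycling UMIs, 5.11%, 9.60% and 1.08% with a *Retnlg* plus *Mmp8* limit of 5, 11.3%, 13.1% and 6.76% with 20, and 7.15%, 8.64% and 3.27% with an *Mpo* limit of 5. Thinning gave 5.66% and 7.55% in young and control, and leaving out low-*Ltf* and haemoglobin cells 8.62% in young. Genes higher than in maturing cells numbered 22 with the limit per 10000, 3 and 33 with *Retnlg* plus *Mmp8* limits of 5 and 20, 5 with the *Mpo* limit of 5, 17 without trimming by UMIs, 19 with thinning and 167 against maturing cells of fewer than 3 cycling UMIs, a setting chosen after seeing the data like those on low-*Ltf* cells. With a 50 CPM minimum the counts were 144 and 129 (old against young, higher and lower), 136 and 83 (old against control), 52 and 95 (control against young), 4 and 42 (against maturing) and 25 and 273 (against cycling), and with a limit of 2-fold 144 and 391, 120 and 132, 31 and 188, 0 and 55, and 23 and 321. At 0 cycling UMIs they were 743 higher (old against young), 885 higher (old against control) and 361 and 1094 (control against young). UMIs per cell gave 2625 and 241 (old against young) and 2612 and 65 (old against control), and size factors 761 and 257 higher (old and control against young). With 4 *Ltf* ranges weighted equally they were 1211 and 1625, 1620 and 1010, and 580 and 1627, and with the 3 ranges at 10 or more 880 higher (old against young), 838 higher (old against control) and 503 and 766 (control against young). Without low-*Ltf* cells 299 were lower in control. Of the single genes, old against control turned for *Irf8* (log2 1.56 with the limit of 5, 0.37 thinned, 0.40 with 4 ranges, from 2 old UMIs) and for *Hba-a1*, *Hba-a2*, *Hbb-bs* and *Hbb-bt* (0.58, 0.48, 0.51 and 1.14 with percentiles over all libraries), with *Hbb-bt* at 0.00250 without trimming, and *Hist1h2ap* turned to 0.12 against maturing cells of fewer than 3 cycling UMIs. The causes were not tested. Of the other values for single genes, 1390 kept direction and side of the 1.5-fold limit, 12 passed it and 39 no longer did. Where both sides of a comparison were below 3 UMIs, which is 0.680, 0.399 and 0.837 CPM in young, control and old members, no difference was detectable.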
